A study of Mus musculus with 28 samples.

Results

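The 10 genes described here act in the breakdown of the branched-chain amino acids leucine, isoleucine and valine and of propionate in mitochondria: Pcca, Pccb, Bckdha, Bckdhb, Dbt, Bcat2, Ivd, Hibadh, Mccc1 and Mccc2. They were taken by gene symbol from 3 tables of RNA-seq expression values, which hold 54163 genes for liver at 40 d, 54189 for muscle at 40 d and 54501 for both tissues at 24 h. All 10 were found once in each table. The group was chosen by the muscle values at 40 d, in which Pcca was lower in treated animals. The differences of these 10 genes between treated and vehicle muscle at 40 d are therefore given as a description, with no test. The 10 genes were tested in liver, and genes outside the group in both tissues.

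All mice were males of genotype Lepob/Lepob on C57BL/6J, a strain that lacks functional leptin and becomes obese. From 4 weeks of age they were fed the AMLN diet, with 40% of calories from fat, 20% of calories from fructose and 2% cholesterol by weight, for 20 weeks, as a model of steatohepatitis. All groups carried this genotype and stayed on the diet. Treated animals received daily intraperitoneal injections of aspirin (acetylsalicylate, 3.0 mg/kg) together with trimetazidine (5.0 mg/kg), and vehicle animals received solvent. Trimetazidine is an inhibitor of mitochondrial fatty acid oxidation. Liver and muscle were sampled from 6 vehicle and 6 treated animals at 40 d, labelled as treatment or vehicle for 40 d. At 24 h, 1 library per group and tissue was made, labelled as 24 h after the injection of the drugs or vehicle. Libraries are named by the numbers in the labels: vehicle 2_1, 2_3, 2_4, 2_5, 3_2 and 6_1, and treated 4_5 and 5_1 to 5_5. The first digit of these numbers is never shared by vehicle and treated animals, so whatever that digit stands for cannot be told apart from the treatment.

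Branched-chain amino acids are first transaminated, mainly outside the liver, and the resulting keto acids are oxidised by the branched-chain keto acid dehydrogenase complex, the committed step of the pathway. A kinase switches that complex off and a phosphatase switches it on. Leucine carbon then passes through isovaleryl-CoA dehydrogenase and methylcrotonyl-CoA carboxylase, valine carbon through hydroxyisobutyrate dehydrogenase, and carbon from valine, isoleucine and odd-chain fatty acids ends as propionyl-CoA, which propionyl-CoA carboxylase carries towards the citric acid cycle.

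Expression is given as FPKM, the fragments assigned to a gene scaled to its exonic length and to the library. The reads assigned to genes numbered 16.77 M to 18.9 M in a liver library and 16.1 M to 19.92 M in a muscle library at 40 d. The 10 genes had between 251 reads (Bcat2 in a vehicle liver) and 6811 reads (Hibadh in a vehicle liver) per liver library. Hepatocyte markers (Alb, Apoa1, Ttr, Cyp2e1, Serpina1a and Cps1) summed to 31860 to 37290 FPKM in vehicle livers and 21710 to 38860 in treated livers, and skeletal muscle markers to 35550 to 66760 and 39750 to 60510 FPKM in vehicle and treated muscle. Muscle markers were at most 5.26 FPKM in any liver, with Tnnc2 listed at 0 in all of them, and hepatocyte markers were at most 168.1 FPKM in any muscle, so the tissues matched their labels. The samples are whole tissue, in which fewer cells of a type and less RNA per cell cannot be told apart. The 5 neutrophil markers summed to 10.82 to 18.03 FPKM in vehicle livers and 28.8 to 443.3 in treated livers, with no overlap, and 1 of them, S100a9, rose past the threshold in liver (log2 difference 2.62, limma adjusted p 0.0449). No liver gene, S100a9 included, passed without the filter on low values, without vehicle 2_3, without treated 5_3, or without treated 4_5 and 5_5.

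In vehicle animals at 40 d, most of these genes had higher FPKM in liver than in muscle. The tables of the tissues were scaled separately, so these ratios are descriptions. Bckdhb stood at 50.5 ± 2.21 FPKM in liver and 16.7 ± 1.41 in muscle (SD, n = 6 each), a ratio of 3.02. The ratio was 2.29 for Hibadh, 1.86 for Dbt, 1.62 for Pcca and 1.62 for Pccb, and libraries of the tissues did not overlap for any of these. Mccc2 was at a ratio of 1.27, also without overlap, whereas the ranges overlapped for Bckdha (1.44), Mccc1 (1.24) and Ivd (0.859). Bcat2 was the reverse, with 4.01 ± 0.477 FPKM in liver and 16.996 ± 2.996 in muscle, a ratio of 0.236. Bcat2 encodes the mitochondrial branched-chain aminotransferase, the enzyme of the first step, which is known for its low level in liver.

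**Figure D1:**
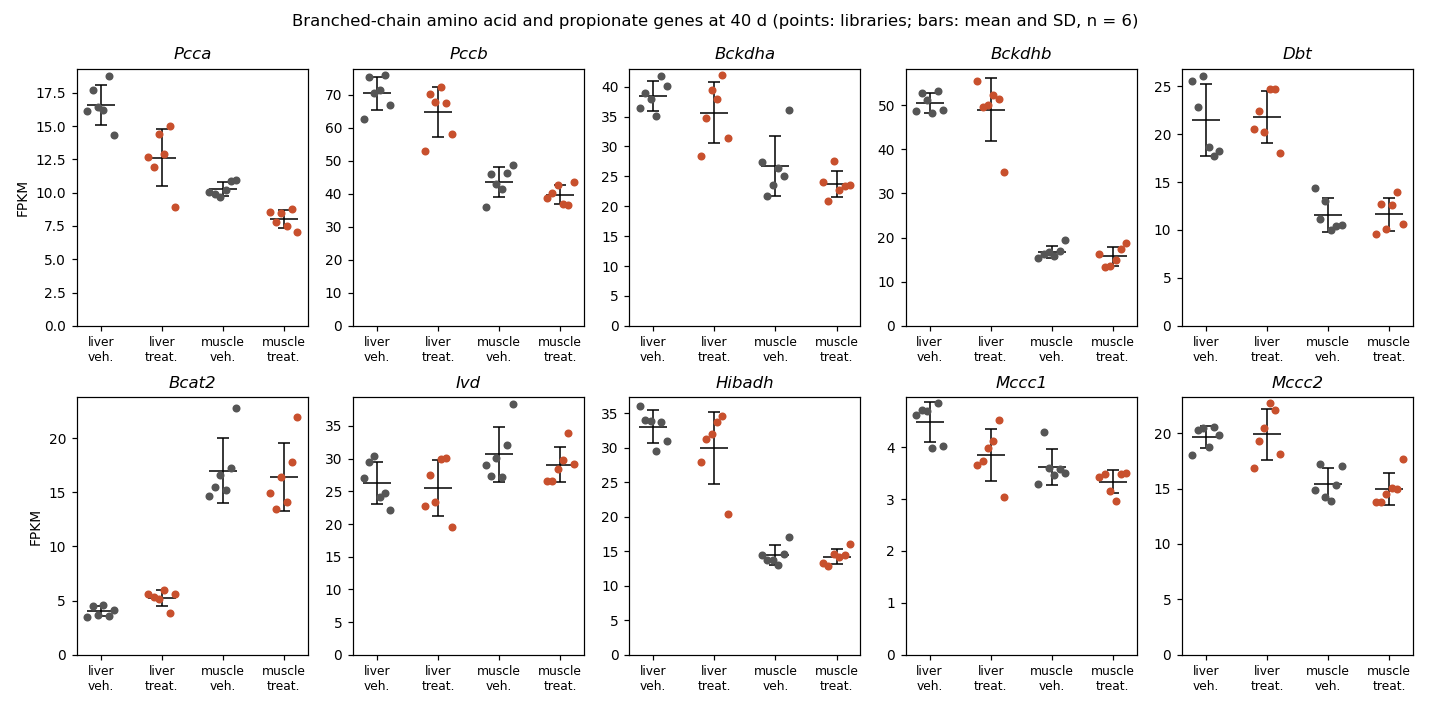
FPKM (y axis, from 0) of each of the 10 genes in the libraries at 40 d; points are libraries, grey for vehicle and orange for treated, and bars give mean and SD of 6. The Pcca panel shows treated muscle (7.06 to 8.75) below all vehicle muscle (9.69 to 10.97), and the Bcat2 panel shows the low liver and high muscle levels.

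Pcca encodes the biotin-carrying alpha subunit of propionyl-CoA carboxylase and Pccb its beta subunit. Mccc1 and Mccc2 are the matching alpha and beta subunits of methylcrotonyl-CoA carboxylase. The alpha message is compared with the beta message in both enzymes below. For these 4 genes the 250 bases upstream of the RefSeq start are shown, 5′ to 3′ on the gene's strand (RefSeq, build GRCm38.p6). Capitals mark exact matches, on either strand, to the 6 motifs named after the sequences. Pcca has a second RefSeq start, and the window nearest the gene start in the deposited table is shown. The windows are chr14:122534078-122534327 (plus strand) for Pcca, chr9:101034885-101035134 (minus) for Pccb, chr3:36000679-36000928 (minus) for Mccc1 and chr13:100015640-100015889 (minus) for Mccc2.
Pcca: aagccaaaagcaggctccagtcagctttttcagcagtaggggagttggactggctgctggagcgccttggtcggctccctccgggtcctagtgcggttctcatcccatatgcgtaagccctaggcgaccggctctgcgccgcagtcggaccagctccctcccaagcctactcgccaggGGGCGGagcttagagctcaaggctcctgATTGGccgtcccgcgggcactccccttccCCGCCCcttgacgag
Pccb: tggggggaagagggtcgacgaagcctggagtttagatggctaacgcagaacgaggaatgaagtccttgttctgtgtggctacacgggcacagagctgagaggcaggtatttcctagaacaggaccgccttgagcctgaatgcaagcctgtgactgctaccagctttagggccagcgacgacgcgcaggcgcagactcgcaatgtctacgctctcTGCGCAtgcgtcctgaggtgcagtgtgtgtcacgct
Mccc1: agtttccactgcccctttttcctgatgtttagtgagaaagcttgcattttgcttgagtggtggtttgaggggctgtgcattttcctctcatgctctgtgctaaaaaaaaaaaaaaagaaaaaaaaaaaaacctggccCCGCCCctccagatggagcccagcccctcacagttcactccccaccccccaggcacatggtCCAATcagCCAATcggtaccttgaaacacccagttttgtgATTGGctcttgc
Mccc2: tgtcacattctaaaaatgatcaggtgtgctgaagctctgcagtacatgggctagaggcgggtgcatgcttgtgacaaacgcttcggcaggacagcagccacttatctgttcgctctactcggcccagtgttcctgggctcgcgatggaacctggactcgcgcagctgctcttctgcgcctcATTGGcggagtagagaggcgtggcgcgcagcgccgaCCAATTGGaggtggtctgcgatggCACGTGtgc

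The motifs searched were the GC box GGGCGG, the CCAAT box CCAAT, the NRF1 half-site TGCGCA, the E-box CACGTG, the nuclear receptor half-site AGGTCA and the ERR half-site AAGGTCA, which contains AGGTCA. The shown Pcca window holds 2 GC boxes and 1 CCAAT box at 64.8% GC, and the Mccc1 window 1 GC box and 3 CCAAT boxes at 48.4% GC. The Pccb window holds 1 TGCGCA and the Mccc2 window 1 CACGTG and 3 CCAAT boxes, of which a pair overlap on opposite strands. Median GC over all 32851 windows was 52.4%. RefSeq windows were found for 9 of the 10 genes, 12 windows in all. Among these 12, GGGCGG was in 4, CCAAT in 7, TGCGCA in 2, CACGTG in 1, AGGTCA in 2 and AAGGTCA in 0. The shares over all windows were 32.74%, 33.85%, 6.43%, 6.02%, 14.02% and 4.08% in the same order. These matches describe letters only, and the data hold no measure of binding.

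In muscle at 40 d, Pcca was lower in every treated library than in every vehicle library. The gene lies at chr14:122534324-122891100 on the plus strand (ENSMUSG00000041650, GRCm38). Its FPKM in vehicle muscle were 10.03, 9.89, 9.69, 10.17, 10.88 and 10.97 in libraries 2_1, 2_3, 2_4, 2_5, 3_2 and 6_1. In treated muscle they were 8.55, 7.78, 8.46, 7.52, 8.75 and 7.06 in 4_5 and 5_1 to 5_5. The groups did not overlap, and the lowest vehicle value stood above the highest treated one. The means were 10.3 ± 0.530 and 8.02 ± 0.667 FPKM (SD, n = 6 each), a difference of -0.32 on the log2(FPKM + 1) scale. This value chose the group and is given without a test. Of the 11708 genes tested in muscle, 0.171% were lower in treated libraries without overlap, and 1 of the 10 genes, Pcca, was among them. No gene passed the adjusted threshold in muscle (0.0%), by limma or by limma voom on recovered reads, and 451 genes (3.85%) had an unadjusted limma p under 0.05. With values rescaled to equal sums, 2 genes passed by limma, neither of them among the 10.

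In liver, Pcca was also lower in treated animals. The genes were picked from the muscle difference, but with earlier results of these data known, and the livers carry the same label numbers as the muscles, so the liver values are not independent of that choice. FPKM were 16.1, 17.7, 16.5, 16.2, 18.7 and 14.3 in the vehicle livers and 12.7, 11.9, 14.4, 12.9, 15.03 and 8.90 in the treated livers, in the same order of libraries. The 6 treated livers lay below the vehicle mean and 4 of them below every vehicle liver, 5_2 and 5_4 being the exceptions. The means were 16.6 ± 1.503 and 12.6 ± 2.16 FPKM, a log2 difference of -0.38 with a standard error of 0.11 (95% interval -0.61 to -0.15). The gene did not pass, with a limma adjusted p of 0.175 and an unadjusted limma p of 0.00378. Without treated liver 5_5 the log2 difference was -0.29, and without 4_5 and 5_5 it was -0.28. Over all alternatives tried the limma adjusted p ranged from 0.103 to 0.348.

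Pccb (chr9:100982032-101034898, minus strand, ENSMUSG00000032527) was at 62.6, 75.2, 70.6, 71.3, 75.9 and 66.9 FPKM in vehicle livers and 53.1, 70.3, 67.7, 72.3, 67.4 and 58.1 in treated livers. The groups overlapped in 4 of the 6 treated libraries, and 4_5 and 5_5 lay below all vehicle livers. Means were 70.4 ± 5.05 and 64.8 ± 7.54 FPKM, a log2 difference of -0.12 (95% interval -0.32 to 0.07, limma adjusted p 0.574). In muscle the means were 43.6 ± 4.57 and 39.7 ± 2.94 FPKM, a log2 difference of -0.13.

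Mccc1 (chr3:35959312-36000678, minus strand, ENSMUSG00000027709) was the least abundant of the 10 in muscle. In liver it was at 4.63, 4.72, 4.69, 3.98, 4.86 and 4.03 FPKM with vehicle and 3.66, 3.74, 3.98, 4.13, 4.53 and 3.05 with treatment. Of the treated livers 4_5, 5_1 and 5_5 lay below all vehicle livers and the others overlapped with them. Means were 4.49 ± 0.383 and 3.85 ± 0.500 FPKM, a log2 difference of -0.18 (95% interval -0.35 to -0.01) with a limma adjusted p of 0.349. Mccc2 (chr13:99948530-100015639, minus strand, ENSMUSG00000021646) was at 19.7 ± 1.02 and 19.9 ± 2.30 FPKM, with a log2 difference of 0.01 (95% interval -0.16 to 0.18) whose sign turned under another scaling. In muscle, Mccc1 was at 3.62 ± 0.344 and 3.34 ± 0.225 FPKM and Mccc2 at 15.4 ± 1.40 and 14.9 ± 1.42.

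Each of these carboxylases needs both subunits, so the message of the alpha subunit was set against that of the beta subunit within each liver. Each is a log2 ratio of FPKM + 1, which for genes of low FPKM differs from the ratio of FPKM itself. Of 5 ratios tested, 2 passed an exact two-sided permutation test over all 924 relabellings, with p-values adjusted over the 5. The smallest p this design can give is 0.00216. The log2 Mccc1/Mccc2 ratio ranged from -2.05 to -1.76 in vehicle livers and from -2.24 to -1.93 in treated livers. It fell by 0.19, from -1.91 ± 0.10 to -2.11 ± 0.11 (SD, n = 6 each, exact permutation p 0.013, adjusted 0.0325). The call rests on single libraries: leaving out vehicle 2_1, 2_3, 2_4 or 3_2, or treated 5_3 or 5_5, gave an adjusted exact permutation p of 0.0595. The difference itself stayed between -0.23 and -0.16 when any 1 library was left out.

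The log2 Pcca/Pccb ratio ranged from -2.15 to -1.89 in vehicle livers and from -2.58 to -1.98 in treated livers. Treated livers 5_1, 5_2, 5_3 and 5_5 lay below all vehicle livers, while 4_5 and 5_4 were among them. Means were -2.02 ± 0.09 and -2.28 ± 0.23, a difference of -0.26 that missed the threshold (exact permutation p 0.0368, adjusted 0.0613). It passed without treated 4_5 (-0.32, adjusted 0.0108 by the exact permutation test) and without treated 5_4 (-0.29, adjusted 0.0397 by the same exact test). Those are the treated livers that lay among the vehicle livers, so leaving out either widens the difference. With any other single library left out the ratio did not pass, at an adjusted exact permutation p of 0.0613 to 0.133. In muscle the means were -1.98 ± 0.13 and -2.18 ± 0.18 for Pcca/Pccb and -1.83 ± 0.10 and -1.88 ± 0.14 for Mccc1/Mccc2. These muscle values have no test, and in both ratios the groups overlapped.

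**Figure D2:**
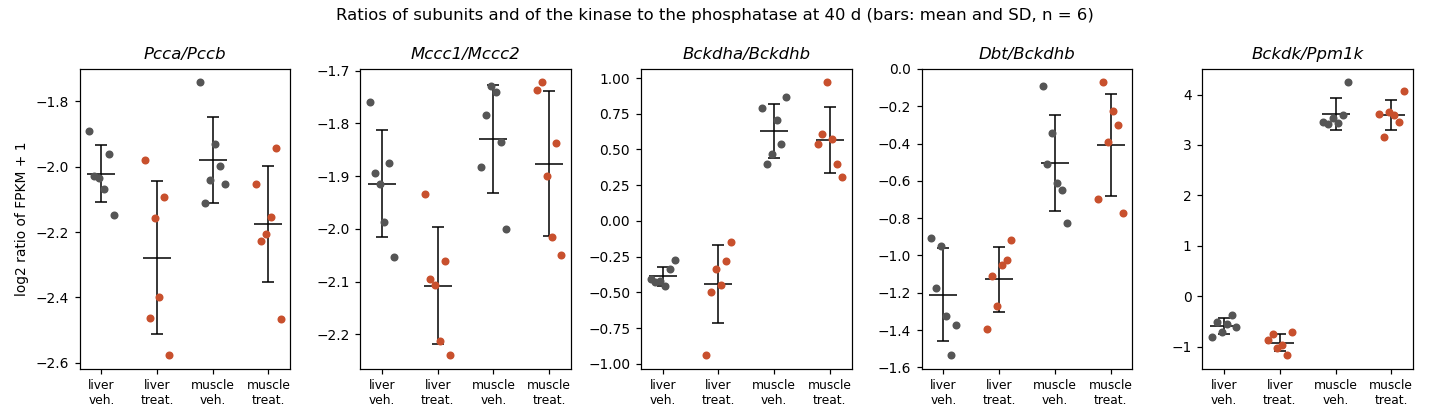
Log2 ratio of FPKM + 1 (y axis, a separate range in each panel that does not start at 0) for 4 subunit pairs and for the kinase Bckdk over the phosphatase Ppm1k; points are libraries at 40 d, bars are mean and SD of 6. In liver the Mccc1/Mccc2 and Bckdk/Ppm1k ratios were lower in treated animals by 0.19 and 0.32, with overlap of the groups, and Bckdk/Ppm1k was near 3.6 in muscle and below 0 in liver.

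Bckdha and Bckdhb encode the E1 subunits of the branched-chain keto acid dehydrogenase complex, and Dbt encodes its E2 core. None differed between the liver groups beyond the spread between libraries. Bckdha (chr7:25629946-25658981, minus strand, ENSMUSG00000060376) was at 38.4 ± 2.48 FPKM with vehicle, from 35.0 to 41.9, and 35.7 ± 5.10 with treatment, from 28.5 to 42.0. Its log2 difference was -0.11 (95% interval -0.32 to 0.09). Bckdhb (chr9:83925145-84124240, plus strand, ENSMUSG00000032263) was at 50.5 ± 2.21 and 49.0 ± 7.19 FPKM, a log2 difference of -0.06 (95% interval -0.27 to 0.16). Its treated range reached from 34.9 in 5_5 to 55.5 in 4_5, the other 4 treated livers standing at 49.7 to 52.3, within the vehicle range of 48.3 to 53.3. Dbt (chr3:116513070-116549981, plus strand, ENSMUSG00000000340) was at 21.5 ± 3.76 and 21.8 ± 2.69 FPKM, a log2 difference of 0.02 (95% interval -0.22 to 0.27). The limma adjusted p of these 3 genes were 0.629, 0.840 and 0.949. The ratios Bckdha/Bckdhb and Dbt/Bckdhb differed by -0.06 and 0.08 between liver groups (exact permutation, adjusted p 0.745 and 0.649).

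Muscle values of the complex at 40 d were 26.7 ± 5.05 and 23.7 ± 2.21 FPKM for Bckdha, 16.7 ± 1.41 and 15.8 ± 2.17 for Bckdhb, and 11.6 ± 1.73 and 11.6 ± 1.74 for Dbt. All 3 genes overlapped between vehicle and treated muscle. Vehicle 6_1 was the highest muscle library for Bckdha, at 36.2 FPKM, and for Bckdhb, at 19.3. The exons of Bckdha overlap a gene on the other strand, B3gnt8, over 61.7% of their length. B3gnt8 was at 0.277 FPKM in vehicle liver, so little signal was assigned to it. The counting may or may not have used strand (not given in the sources used here). Reads of the overlapping part cannot be told apart.

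Bckdk, the kinase that inactivates the dehydrogenase complex, and Ppm1k, the phosphatase that activates it, were at opposite balance in the tissues. In vehicle animals, Bckdk was at 4.83 ± 0.447 FPKM in liver and 45.1 ± 9.52 in muscle, and Ppm1k at 7.83 ± 1.03 in liver and 2.72 ± 0.197 in muscle. The log2 Bckdk/Ppm1k ratio of FPKM + 1 was -0.60 ± 0.15 in vehicle liver and 3.61 ± 0.32 in vehicle muscle. In treated liver the ratio fell by 0.32 to -0.92 ± 0.17 (exact permutation p 0.0108, adjusted 0.0325, n = 6 each). Ratios ranged from -0.80 to -0.37 with vehicle and from -1.17 to -0.72 with treatment, and treated 5_1 and 5_5 lay within the vehicle range. Ppm1k had the larger part of the difference, at 6.42 to 8.99 FPKM with vehicle and 8.60 to 10.3 with treatment (log2 difference 0.27, limma adjusted p 0.195), while Bckdk was at 4.33 to 5.50 and 3.99 to 5.16 (-0.05, limma adjusted p 0.789). Without vehicle 2_3, 2_4 or 3_2, or treated 5_3, the adjusted exact permutation p of the ratio was 0.0595, and the difference stayed between -0.37 and -0.28. In treated muscle the ratio was 3.59 ± 0.30.

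Bcat2 (chr7:45570153-45589711, plus strand, ENSMUSG00000030826) was higher in treated livers, against the direction of most of the other genes. Its FPKM were 3.50, 4.52, 3.71, 4.60, 3.59 and 4.13 with vehicle and 5.57, 5.31, 5.10, 5.97, 3.86 and 5.65 with treatment. Of the treated livers 5 lay above every vehicle liver, and 5_4 was among the vehicle livers. Means were 4.01 ± 0.477 and 5.24 ± 0.742 FPKM, a log2 difference of 0.31 with a standard error of 0.09 (95% interval 0.11 to 0.51). The gene did not pass, with a limma adjusted p of 0.182 and a range of 0.0631 to 0.398 over the alternatives tried. In muscle, where Bcat2 is most abundant, it was at 16.996 ± 2.996 and 16.4 ± 3.14 FPKM, with overlap.

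A gene on the other strand, 0610005C13Rik (chr7:45567794-45575327, minus strand), covers 15.9% of the exonic length of Bcat2. In liver it was more abundant than Bcat2, at 26.5 ± 3.65 FPKM with vehicle and 34.6 ± 6.38 with treatment (log2 difference 0.36, limma adjusted p 0.233), whereas in muscle it was at 0.148 and 0.108 FPKM. Without knowledge of strand in the counting, reads of the shared part in liver cannot be told apart. With group means removed, 0610005C13Rik and Bcat2 had a Pearson r of 0.03 (permutation p 0.949) and a Spearman rho of 0.10 (permutation p 0.766) across the 12 livers. Pearson r was 0.46 without the 2 livers farthest from the median of 0610005C13Rik. This pair was chosen after the values were seen.

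Ivd encodes isovaleryl-CoA dehydrogenase of the leucine branch and Hibadh the 3-hydroxyisobutyrate dehydrogenase of the valine branch. Ivd (chr2:118861954-118882909, plus strand, ENSMUSG00000027332) was at 26.3 ± 3.20 FPKM in vehicle livers, from 22.2 to 30.4, and 25.5 ± 4.33 in treated livers, from 19.5 to 30.2 (log2 difference -0.05, 95% interval -0.30 to 0.20, limma adjusted p 0.881). Hibadh (chr6:52546228-52640389, minus strand, ENSMUSG00000029776) was at 29.5 to 36.1 FPKM in vehicle livers. In treated livers it was at 27.9, 31.3, 32.0, 33.7, 34.6 and 20.4, with 5_5 far below the rest. Hibadh means were 33.0 ± 2.39 and 30.0 ± 5.22 FPKM, a log2 difference of -0.15 (95% interval -0.40 to 0.09, limma adjusted p 0.590), which was -0.05 without 5_5. In muscle Ivd was at 30.7 ± 4.19 and 29.1 ± 2.72 FPKM and Hibadh at 14.4 ± 1.42 and 14.2 ± 1.14, with overlap of the groups for both.

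Across the 10 genes in liver, 0 passed the limma adjusted threshold, where 0.255% of 10995 tested genes passed, and 0 passed by limma voom. An unadjusted limma p under 0.05 was found for 3 of the 10, Pcca, Bcat2 and Mccc1, against 13.2% of all genes tested. None was lower in treated livers without overlap, against 0.728% of genes. Fold changes were below 0 for 7 of the 10, against 51.0% of genes, and Mccc2 joined them under a scaling to equal sums. The count was 5 without treated liver 5_5 and 4 without treated 4_5 and 5_5. It was 7 to 9 when any other single liver was left out. The median log2 fold change was -0.09 for the 10 and -0.003 for all genes tested. In muscle 9 of the 10 were below 0 (8 under a scaling to equal sums, with Hibadh at 0.02) against 51.4% of genes, with a median of -0.08 for the 10 and -0.004 for all genes. The muscle count comes from the contrast that proposed the group, and nothing is read from it.

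**Figure D3:**
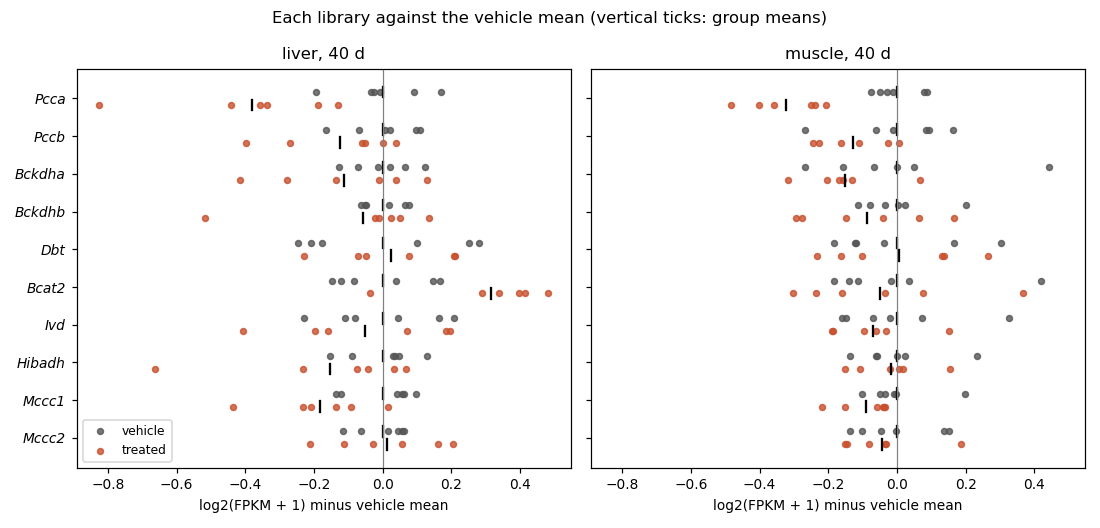
Difference of each library from the vehicle mean on the log2(FPKM + 1) scale (x axis) for the 10 genes in liver and muscle at 40 d; grey points are vehicle, orange points treated, and vertical ticks group means. Pcca means were lower by 0.38 in liver and 0.32 in muscle, Bcat2 stood to the right in liver, and single treated livers trail to the left for several genes.

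The treated livers were unequal. Library 5_5 was the lowest of the 12 livers for 5 of the 10 genes, with a median difference of -0.34 from the vehicle mean, and 4_5 was the lowest for 3, with a median of -0.22. The other 4 treated livers had medians of -0.05 to 0.05. These 2 libraries also had the lowest hepatocyte marker sums, 21710 FPKM in 5_5 and 29090 in 4_5, and 4_5 had the highest neutrophil (443.3) and macrophage (432.3) marker sums. Alb, at a mean of 22319 FPKM in vehicle livers, makes up most of the hepatocyte sum. Between the groups, 3 of the 6 hepatocyte markers had a positive and 3 a negative log2 difference (median -0.02). The part of these marker differences in the values above was not tested. With both left out, the log2 difference was -0.28 for Pcca, 0.01 for Bckdha, 0.01 for Bckdhb and 0.07 for Ivd. In muscle, vehicle 6_1 was the highest library for 7 of the 10 genes, with a median difference of 0.18. It also had the highest sums of the skeletal muscle markers (66760 FPKM) and of the 12 mitochondrial genes used as a measure of content (1437 FPKM). The FPKM of 6_1 were scaled to 15.18 M reads, against 17.35 M reads on genes. That scaling lifts all FPKM of 6_1, marker sums included, relative to a scaling to reads on genes. Its part in these high values was not tested. Treated muscle 5_1 was the lowest for 5 of the 10.

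Most of the 10 genes varied together across livers within a treatment group. With group means removed, the median Pearson r over the 45 pairs was 0.57 in liver, and 36 pairs were positive. All pairs share the same 12 libraries and are given as a description. The largest was 0.91 between Hibadh and Mccc1, and Pcca reached 0.88 with Mccc1. Many genes outside the group also followed Pcca in liver, among the 5767 whose mean reached 5 FPKM. By r with Pcca, Hibadh ranked 125, Bckdhb 140, Ivd 736 and Bckdha 838 (r 0.57). Mccc2 ranked 1109, Pccb 1191 (r 0.49) and Dbt 1795. Whether the covariation is particular to these 10 genes was not tested. The median was not recomputed without the treated livers that were lowest for several of these genes. Bcat2 was the exception in liver, with a negative r with all 9 other genes, down to -0.60 with Mccc1. In muscle the median was 0.23 with 32 positive pairs, and Bcat2 was there among the most connected genes, with r 0.89 to Hibadh. Dbt was positive with 1 of 9 genes in muscle and reached -0.66 with Pccb.

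**Figure D4:**
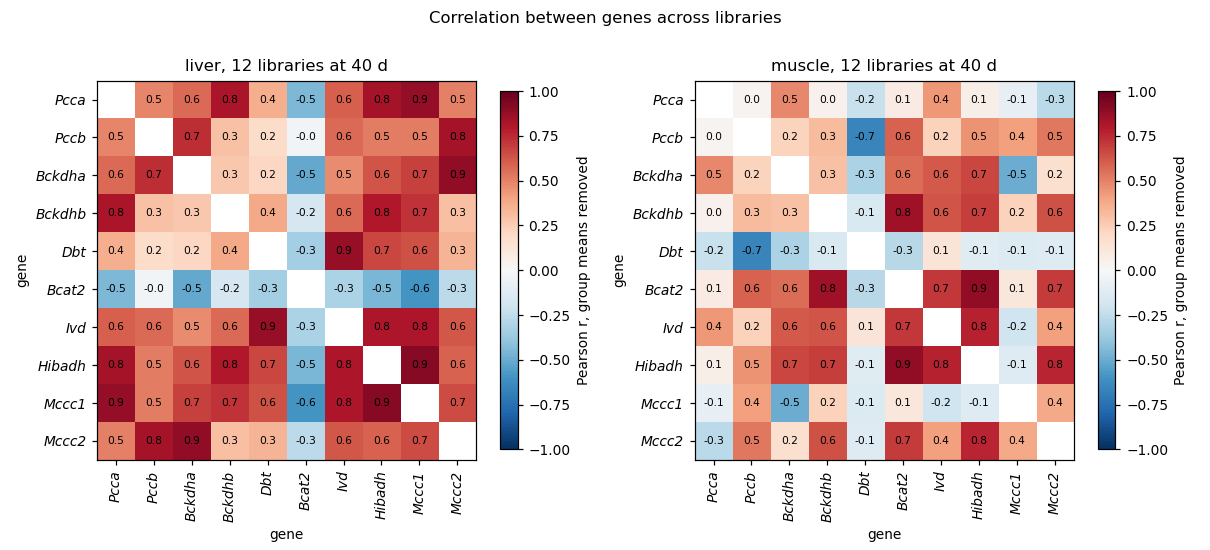
Pearson r between the 10 genes (both axes) across the 12 libraries of each tissue at 40 d, with group means removed; red is positive and blue negative, with values printed in the cells. Bcat2 forms a blue row in liver and a mostly red one in muscle, and Dbt forms a mostly blue row in muscle.

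Subunits of one enzyme were compared in 5 pairs in each tissue, by permutation within groups, with group means removed so that the treated-vehicle difference plays no part. The muscle values are given with no test, and the liver p-values were adjusted over the 10 pairs of both tissues. Mccc1 and Mccc2 in liver had a Spearman rho of 0.85 (permutation p 0.00201, adjusted 0.0201) and a Pearson r of 0.65 (permutation p 0.0437, adjusted 0.437). Pearson r was 0.61 without the 2 livers farthest from the median. The r of 0.65 was near the median r in liver with the 9 other genes. That median was 0.68 for Mccc1 (-0.60 to 0.91) and 0.59 for Mccc2 (-0.26 to 0.89). Whether the covariation is particular to subunits of 1 enzyme was not tested. Pcca and Pccb had an r of 0.49 in liver (permutation p 0.195, adjusted 0.574) and 0.03 in muscle. Spearman rho for this pair was 0.43 in liver (permutation p 0.215, adjusted 0.674) and -0.03 in muscle. The muscle r was 0.50 without treated 5_4 and 5_5, and the liver r was 0.36 without the livers of the same labels. The cause of these shifts was not tested. None of the other liver pairs passed.

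The genes most like Pcca in muscle, by Pearson r across 12 libraries with group means removed and over the 6193 genes whose mean reached 5 FPKM, were not members of the pathway. They were Lmod2, a leiomodin of actin filaments (r 0.93), Azi2, an adaptor of innate immune signalling (0.92), Rnf144b, a ubiquitin ligase (0.92), Usp2, a deubiquitinase (0.92), and Sema7a, a semaphorin (0.91). Lmod2 was at 148 FPKM in vehicle and 117 in treated muscle, Rnf144b at 9.80 and 7.08, Usp2 at 51.2 and 41.1, Sema7a at 18.4 and 14.4, and Azi2 at 6.49 and 6.43. Pccb ranked 2890 in that list. In liver, among 5767 genes and by the same measure applied after the muscle list was seen, the first 5 were Cat, the peroxisomal catalase (r 0.97), Decr1, an enzyme of unsaturated fatty acid oxidation (0.95), Atp5b, a subunit of ATP synthase (0.95), Abhd3 (0.94) and Qdpr, a dihydropteridine reductase (0.94). Cat was at 923 FPKM in vehicle and 757 in treated liver and Decr1 at 84.1 and 65.6. Hibadh ranked 125 and Bckdhb 140 among livers, with r 0.83 and 0.82. Mccc1 (r 0.88 with Pcca) and Bcat2 (-0.45) did not reach a mean of 5 FPKM in liver and were not ranked.

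Other genes of the pathway were read from a list of 18, of which 17 were tested in each tissue. In liver 0 of 17 passed. An unadjusted limma p under 0.05 was found for 4, against 13.2% of all genes tested. Fold changes were negative for 14, against 51.0% of genes, with a median of -0.14 against -0.003 for all genes. Without treated 4_5 and 5_5, 10 of the 17 were negative and the median was -0.03. The smallest p belonged to Ppm1k, described above. Next came Dld, the shared E3 subunit, at 44.8 ± 2.31 and 38.9 ± 3.73 FPKM (log2 difference -0.20, limma adjusted p 0.275), and Mmadhc, which prepares cobalamin for methylmalonyl-CoA mutase, at 47.6 ± 4.18 and 40.0 ± 5.16 (-0.25, limma adjusted p 0.279). The fourth was Acat1, the thiolase at the end of the isoleucine branch, at 193 ± 9.42 and 170 ± 13.8 (-0.18, limma adjusted p 0.325). In muscle 0 of 17 passed, and 0 had an unadjusted limma p under 0.05 against 3.85% of genes. Fold changes were negative for 15 against 51.4%, with a median of -0.07. This count and the muscle counts of the lists below were not repeated under a scaling to equal sums. The 18 genes summed to 413.3 to 594.1 FPKM in vehicle muscle, the highest in 6_1, and 405.3 to 481.1 in treated muscle. The 3 with the smallest p there were Mmab (-0.13), Acat1 (-0.20, 79.6 and 68.5 FPKM) and Mmadhc (-0.15).

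Pcca and Mccc1 carry biotin, and 5 other genes of biotin enzymes and biotin handling were compared. None passed in either tissue. In liver 3 of 5 had an unadjusted limma p under 0.05, against 13.2% of all genes tested. Acacb, the acetyl-CoA carboxylase at mitochondria, was at 21.0 ± 3.96 and 12.6 ± 4.95 FPKM (log2 difference -0.76, limma adjusted p 0.173). Acaca, the cytosolic acetyl-CoA carboxylase of fatty acid synthesis, was at 12.5 ± 4.25 and 7.13 ± 2.54 (-0.75, limma adjusted p 0.174). Hlcs, which attaches biotin to all of these enzymes, was at 2.90 ± 0.178 and 2.46 ± 0.291 (-0.18, limma adjusted p 0.278). In muscle all 5 were below 0, with a median of -0.12, and 0 had an unadjusted p under 0.05. Acacb (-0.12), Acaca (-0.31) and Pcx, the pyruvate carboxylase (-0.25), had the smallest p there.

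Of 9 transporters and regulators, 6 were tested in liver and 9 in muscle, with 0 passing and 0 at an unadjusted limma p under 0.05 in either tissue. The 3 with the smallest p were Slc3a2 (0.22), Slc25a44 (-0.21) and Klf15 in liver and Klf15, Esrra (-0.25) and Ppargc1a (-0.28) in muscle, as log2 differences. Klf15, a transcription factor that acts on branched-chain amino acid genes, was at 33.9 ± 3.14 and 41.2 ± 12.9 FPKM in liver (log2 difference 0.23) and 27.0 ± 6.97 and 21.8 ± 4.96 in muscle (-0.28). Of 12 genes used as a measure of mitochondrial content, 0 passed in either tissue, 10 were negative in liver with a median of -0.09 (7 without treated 4_5 and 5_5), and 11 in muscle with a median of -0.05. Cs, citrate synthase, was at 38.3 ± 7.44 and 29.0 ± 3.53 FPKM in liver (-0.38, limma adjusted p 0.205), beside -0.38 for Pcca. Lonp1 (-0.23) and Vdac2 (-0.13) came next in liver, and Phb (-0.18), Lonp1 (-0.15) and Vdac1 (-0.17) had the smallest p in muscle. In muscle, the 7 slow fibre markers summed to 250.9 to 1861 FPKM with vehicle and 140.5 to 1531 with treatment, and adipocyte markers to 511.7 to 1566 and 289.2 to 2150. The 4 fibroblast markers summed to 214.8 to 310.0 FPKM with vehicle and 184.2 to 235.1 with treatment, all 4 with a negative log2 difference (median -0.41). The 5 red cell markers summed to 485.2 to 1015 and 340.3 to 2348 FPKM, all 5 with a positive log2 difference (median 0.90). Neutrophil markers summed to 5.00 to 11.98 and 9.17 to 54.2 FPKM, with a positive difference for both that were tested (S100a9 at 1.91). An unadjusted limma p under 0.05 was found for 3 fibroblast, 2 red cell and 2 neutrophil markers in muscle, and none passed the adjusted threshold. The part of these cell types in the muscle values was not tested.

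At 24 h there was 1 library per group, so no test was made, and intervals cover counting error only. In muscle, 9 of the 10 genes were higher in the treated library, against 46.6% of the 12262 genes whose mean reached 1 FPKM, and none was past 1.5-fold on the log2(FPKM + 1) scale, against 11.3% of genes. Pcca was at 15.2 FPKM in treated and 10.9 in vehicle muscle, a ratio of 1.40 (95% counting interval 1.28 to 1.53), the opposite direction to the 40 d difference. Pccb was at 73.5 and 54.3 (1.35, 1.28 to 1.43), Bckdhb at 30.5 and 20.1 (1.51, 1.36 to 1.69), Mccc1 at 6.41 and 4.35 (1.47, 1.34 to 1.62) and Mccc2 at 24.0 and 17.1 (1.40, 1.28 to 1.54). Ratios were 1.23 for Bckdha, 1.23 for Ivd and 1.19 for Hibadh, and the interval of Bcat2 spanned 1 (0.928 to 1.08). Dbt, at 14.4 and 15.5 FPKM, was the gene below 1 (0.932, 0.842 to 1.03). The libraries differed in other ways too: adipocyte markers summed to 3468 FPKM in the treated and 1637 in the vehicle muscle, skeletal muscle markers to 30220 and 47430, and mitochondrially encoded genes took 10.97% and 6.94% of reads. The part of these differences in the ratios was not tested.

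In liver at 24 h, 7 of the 10 genes were higher in the treated library, against 58.3% of 12353 genes, and none was past 1.5-fold, against 5.59%. Bckdhb had the largest ratio, 57.7 and 44.9 FPKM (1.29, 95% counting interval 1.19 to 1.39). Pcca was at 17.3 and 14.96 (1.16, 1.07 to 1.25) and Pccb at 93.7 and 82.7 (1.13, 1.08 to 1.19). Bcat2 was at 5.26 and 6.03 (0.873, 0.747 to 1.02), and Mccc1 at 4.78 and 4.75 (1.01, 0.911 to 1.11). These directions hang on the scaling of the libraries. When values were scaled to the reads on genes, 3 of the 10 were higher in treated liver, with ratios of 1.03 for Pcca, 1.01 for Pccb and 1.14 for Bckdhb, and the median of all genes moved from 0.04 to -0.12 in log2. In muscle the same scaling left 9 of the 10 higher, with a ratio of 1.44 for Pcca and a median of all genes of 0.02 in place of -0.02. Under it, and with nothing added to the values, Bckdhb (1.56) and Mccc1 (1.52) were past 1.5-fold in muscle. The share of all genes past 1.5-fold under it was not counted.

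**Figure D5:**
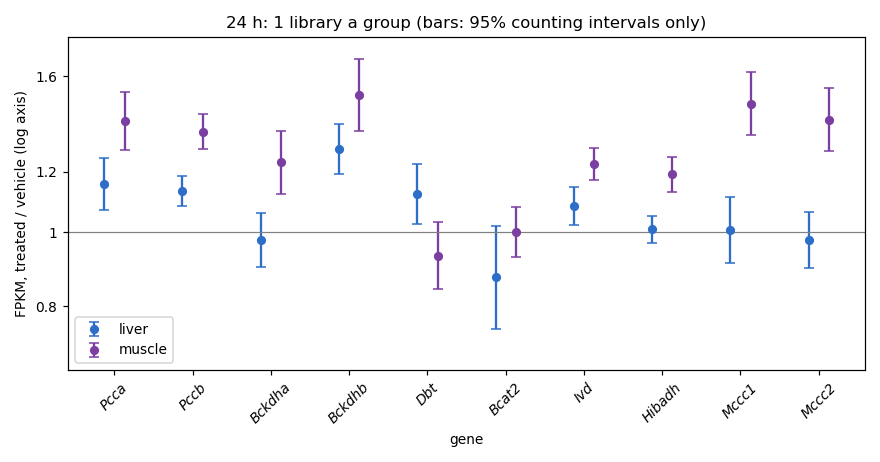
Ratio of FPKM, treated over vehicle (y axis, log scale), at 24 h for the 10 genes in liver (blue) and muscle (purple); points are single pairs of libraries and bars 95% counting intervals, which hold no animal-to-animal spread. In muscle 8 intervals lie above 1, Pcca at 1.40 among them, and in liver Bckdhb is the highest at 1.29.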

How the data were processed

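Per the labels' protocols, RNA came from a Trizol extraction and was made into libraries with a NEBNext Ultra kit. The authors deposited 3 tables of FPKM values, per the file headers, on GRCm38 (mm10), per the submitters' processing notes. The software that aligned and counted the reads was not given in the sources used here, nor was its strand setting. All columns of sample values were used. Values above 0 came out as whole reads in 100.0% of cases, within 0.01 reads, so reads per gene were recovered from FPKM and exonic length. The deposited gene spans and exonic lengths of the 10 genes equal those of GENCODE vM21.

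Groups came from the labels. Samples of either drug alone were not analysed here. The labels give no more than numbers for the animals, so p-values measure the spread between these libraries. Tables were fitted separately, since each was scaled on its own. Genes that reached 1 FPKM in 6 or more of 12 libraries were tested on log2(FPKM + 1), which understates the change of low genes, with limma 3.58.1 (trend, two-sided, R 4.3.3), Benjamini-Hochberg adjustment over all genes tested and a threshold of 0.05. The test was checked on simulated data with changes of 1.5-fold and more, in genes drawn independently of each other. Smaller changes and covariation between genes were not simulated, so the check does not cover differences as small as those of the 10 genes. Ratios within livers were tested by exact permutation, and correlations by 100000 permutations within groups, with Python 3.11.15, NumPy 2.4.6, SciPy 1.17.1 and pandas 2.3.3. Figures used matplotlib 3.10.9. The rule names all 10 genes, the genes of other lists that passed and the 3 of smallest p in each, and the 5 genes most like Pcca. The 10 genes, the lists, the ratios and the tests were chosen with earlier results of these data known. Alternatives were a pseudocount of 0.1, no filter, values rescaled to equal sums, limma voom on recovered reads and leaving out each library. Leaving out treated livers 4_5 and 5_5 together, and scaling the 24 h values to reads on genes, were added after the values were seen.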

Additional observations from a re-analysis of the deposited data

Results flagged for a closer look

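Of 40 groups of 6 libraries, 4 held a value whose gap to its nearest neighbour as a share of the group's range exceeded Dixon's 95% critical value, where chance gives about 1 in 20 groups. Bckdhb in treated liver 5_5 was at 34.9 FPKM, with the next library at 49.7 (gap 0.717 of the range). Bcat2 in vehicle muscle 6_1 was at 22.8 FPKM, with the next at 17.3 (0.684). Mccc1 in vehicle muscle 2_3 was at 4.29 FPKM, with the next at 3.60 (0.698). Mccc2 in treated muscle 5_5 was at 17.6 FPKM, with the next at 15.03 (0.671).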

How the results depend on the processing

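Among liver fold changes of the 10 genes, 155 of 170 alternative values kept their direction and side of the threshold and 15 turned in sign, and none of the 10 was called under any of 17 alternatives. The turned values were 0.005 for Bckdha, 0.01 for Bckdhb and 0.074 for Ivd without treated 4_5 and 5_5, and -0.001 for Mccc2 with values rescaled to equal sums. Leaving out 1 library at a time gave -0.096 to 0.035 for Bckdhb, -0.025 to 0.08 for Dbt, -0.102 to 0.019 for Ivd and -0.027 to 0.057 for Mccc2. In muscle, 160 of 160 alternative values moved by less than the spread between libraries. Leaving out 1 library can hardly move a group mean that far, so this count is not a measure of stability. Among the 160, 13 turned in sign: 7 for Dbt (-0.045 to -0.001), 2 for Bcat2 (0.003 to 0.035) and 4 for Hibadh (0.0004 to 0.029). The count of genes called in liver was 28, 0 without the filter (more genes tested), 0 without treated 4_5 and 5_5 (fewer libraries), and 0 to 85 with 1 library left out: 0 without vehicle 2_3 or treated 5_3 and 85 without treated 5_2. In muscle it was 2 after rescaling and 0 to 1 with 1 library left out, against 0; the cause was not tested.

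Of 65 alternative ratio values in liver, 52 kept their call. With 1 library left out, Pcca/Pccb ranged from -0.317 to -0.197, Mccc1/Mccc2 from -0.229 to -0.163, Bckdk/Ppm1k from -0.366 to -0.275 and Bckdha/Bckdhb from -0.114 to 0.0435, the last turning in sign without treated 4_5. Without the 2 libraries farthest from the median, r moved to 0.73 for Bckdha-Bckdhb, 0.02 for Bckdha-Dbt and 0.22 for Bckdhb-Dbt in liver. In muscle it moved to 0.50 for Pcca-Pccb, 0.22 for Mccc1-Mccc2, -0.12 for Bckdha-Bckdhb and 0.08 for Bckdhb-Dbt. These shifts come with fewer libraries, and their cause was not tested. At 24 h, 31 of 40 alternative values stayed within the counting interval and 9, all in liver, left it when scaled to reads on genes. No paired analysis was possible because treated and vehicle libraries of a tissue share no label number. The fewest reads behind a liver value of the 10 genes were 251 (Bcat2), which limits its precision.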
